A study of Homo sapiens with 12 samples.

Results

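The 41 genes described here act in meiosis or in the PIWI-interacting RNA (piRNA) pathway of germ cells, and they were followed in leukaemia cells given decitabine. They were chosen by gene symbol, from a list of names whose rule uses no measured value, although the list was drawn up with earlier results of these data known. Of the 41, 40 had a row of their own on the array, among 18417 genes tested in all. SOHLH2, a germ cell transcription factor, shares its only row with a read-through gene and was not analysed here. Each of the 40 genes had 1 row.

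The study compared 4 groups of 3 arrays. Treated KA is K562/ADR, a subline of the chronic myeloid leukaemia line K562 that resists adriamycin and was kept in 50 nM of that drug, after 72 hours with 5 nM decitabine. Untreated KA is the same subline without decitabine. Treated KS is K562 itself after the same dose and time, and untreated KS is K562 without decitabine. Decitabine, a cytidine analogue that enters DNA during replication and depletes the enzymes that methylate it, was the treatment tested. KA and KS differ in line and in adriamycin exposure together, so these cannot be told apart. The labels do not say what the untreated cells received in place of decitabine, whether adriamycin was present during the treatment, or whether the 3 arrays of a group came from separate cultures. The p-values therefore measure only the spread between these samples. Per the labels, the study asks how decitabine acts on drug resistance.

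During meiosis, a germ cell pairs its homologous chromosomes, joins them along the synaptonemal complex, breaks and recombines their DNA, and holds sister chromatids together with germ cell versions of cohesin. In the same cells, PIWI proteins carry piRNAs, small RNAs that guide the silencing of transposons, and Tudor domain proteins bind PIWI proteins and help to make piRNAs. Most of these genes are silent in somatic tissue, and promoter DNA methylation is a known part of that silencing.

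Values are log2 intensities as deposited. They ran from 0.226 to 13.2, with array medians of 4.96 to 5.01, and only differences of 1 gene between groups are read, never 1 gene's level against another's. The lower quartile of an array was 3.32 to 3.39. A group mean of at most 3.39 was not shown to exceed background, and a change to or from such a mean is a lower bound on its size. A mean less than 0.5 above this limit is called near background. Changes are tested with limma and are called at a Benjamini-Hochberg adjusted p under 0.05 over all 18417 genes; "rose" and "fell" mean called changes, given on the log2 scale ± SE. Of 12 measured markers of K562 as an erythroid leukaemia line, all 12 lay above the limit in every group. So did 9 of 10 lymphoid and 6 of 7 epithelial markers, so lying above the limit does not by itself mark a cell type. The counts that follow are for the K562 markers. In KA 2 of the 12 rose and 1 fell, and in KS 7 rose and 0 fell (limma; also 0 falls at an unadjusted p under 0.05). Of all genes, 9.66% rose and 4.96% fell in KA, and 14.6% rose and 15.7% fell in KS. KIT, a receptor tyrosine kinase, rose by 1.05 ± 0.15 in KA and 1.56 ± 0.15 in KS, and ALAS2, the erythroid enzyme of haem synthesis, by 1.01 ± 0.31 in KA and 2.47 ± 0.31 in KS. Array means over the K562 markers were 9.01 to 9.03 in treated KA, 8.86 to 8.90 in untreated KA, 9.11 to 9.19 in treated KS and 8.61 to 8.82 in untreated KS.

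Untreated KS replicate 3 was the highest of its group in 12 of the 16 genes of the list that decitabine raised in KS when this array was left out. Over all genes raised in that fit, it was highest in 1911 of 2710, or 70.5%. Over the 8 genes of the list raised by at least 1, it had covered, on the linear scale, a median of 29.6% (15.7 to 60.2%) of the distance between the other untreated KS arrays and treated KS. Treated KS replicate 1 was the lowest of its group in 6 of 16 such genes, against 1411 of 2486 (56.8%) over all genes. Results that rest on untreated KS replicate 3 are given with and without it.

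Without decitabine, most of the list was at background. In untreated KA, 26 of the 40 genes had a mean of at most 3.39, and so did 26 of 40 in untreated KS. Of all genes, 16.4% and 17.1% lay there in untreated KA and untreated KS. After decitabine the count was 17 of 40 in treated KA and 19 of 40 in treated KS, whereas for all genes the shares were 16.9% and 16.7%. Another 8 genes in treated KA, 3 in untreated KA, 4 in treated KS and 3 in untreated KS were near background. Near it in treated KA were SYCP3, SYCE1, TEX11, MOV10L1, DNMT3L, TDRD9, TDRD12 and TEX14, and in untreated KA SYCE1, MOV10L1 and DNMT3L. In treated KS these were PIWIL2, DNMT3L, TDRD9 and TEX14, and in untreated KS MOV10L1, DNMT3L and GCNA. At or below the limit in all 4 groups were 17 genes, namely SYCP1, SYCP2, TEX12, HORMAD2, SMC1B, SPO11, PIWIL1, DDX4, ASZ1, HENMT1, TDRD1, TDRD5, TDRD6, RNF17, STK31, TEX101 and BRDT. SYCE2, REC8, STAG3, DMC1, MEI1, MEIOB, TEX15, PIWIL4, PLD6, TDRKH and DAZL were above the near-background range in all 4 groups. The heat map of levels shows both sets.

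**Figure D1:**
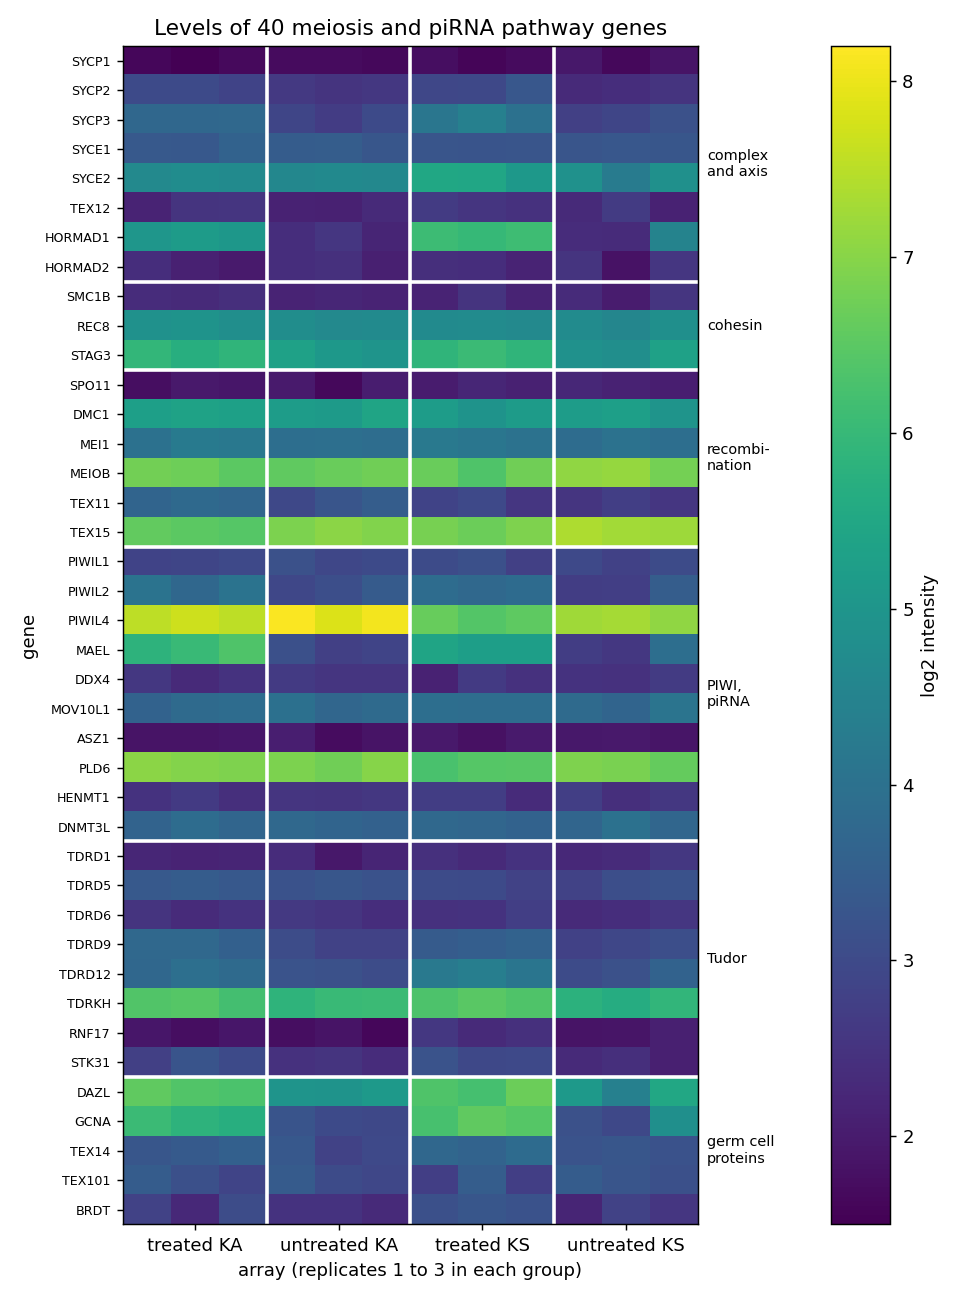
Log2 intensity of the 40 genes (rows, grouped by role) on each of the 12 arrays (columns, replicates 1 to 3 of treated KA, untreated KA, treated KS and untreated KS). MAEL, HORMAD1 and GCNA are dark in the untreated groups and bright in the treated ones, apart from their intermediate values on untreated KS replicate 3.

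Decitabine raised 13 of the 40 genes and lowered 2 in KA, where 9.66% of all genes rose and 4.96% fell. In bulk RNA, more cells that express a gene and more RNA per cell cannot be told apart. It raised 16 and lowered 4 in KS, where 14.6% of all genes rose and 15.7% fell. In either direction, 15 genes of the list were called in KA against 14.6% of all genes, and 20 in KS against 30.3%. The median change over the 40 genes was 0.14 in KA and 0.10 in KS, against -0.02 and -0.01 over all genes. In both lines 12 genes rose, namely SYCP2, SYCP3, HORMAD1, STAG3, PIWIL2, MAEL, TDRD9, TDRD12, TDRKH, STK31, DAZL and GCNA. TEX15 and PIWIL4 fell in both, 0 genes were called in opposite directions (limma, at adjusted p), and 19 were called in neither line. Of the 13 genes raised in KA, 92.3% also rose in KS, and of the 16 raised in KS, 75% also rose in KA. Over all genes these shares were 63.9% and 42.4%. Every called decitabine change of the 40 genes separated all 3 treated arrays from all 3 untreated arrays of its line. The share of all called genes that did so was not counted, so this adds nothing to the calls. All 20 genes called in KS were also called without untreated KS replicate 3, and again without treated KS replicate 1.

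Of the genes that rose, 10 of 13 in KA and 11 of 16 in KS had started at or below the limit. Of the 26 genes of the list at or below the limit in untreated KA, 10 rose (38.5%) and 0 fell (limma; also 0 at an unadjusted p under 0.05, in KA and in KS). Of all 3028 genes at that level, 2.71% rose and 0.925% fell. In KS, 11 of 26 rose (42.3%) and 0 fell, against 5.61% and 2.28% of 3156 genes. Among these rises, SYCP2 and STK31 in KA and SYCP2, RNF17, STK31 and BRDT in KS stayed at or below the limit after treatment. Those were not shown to exceed background in either group. Among the 14 genes of the list above the limit in the untreated group, 3 rose and 2 fell in KA, and 5 rose and 4 fell in KS. Of those 14 genes these are 21.4% and 14.3% in KA and 35.7% and 28.6% in KS, against 11.03% and 5.76% of all genes in KA and 16.4% and 18.5% in KS. The change in KA and the change in KS, which share no arrays, had a Pearson correlation of 0.94 and a Spearman correlation of 0.81 across the 40 genes. Without MAEL, GCNA, HORMAD1 and DAZL, these were 0.85 and 0.74 across 36 genes, and across all genes they were 0.62 and 0.48. The genes are not independent replicates, so these are descriptions.

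**Figure D2:**
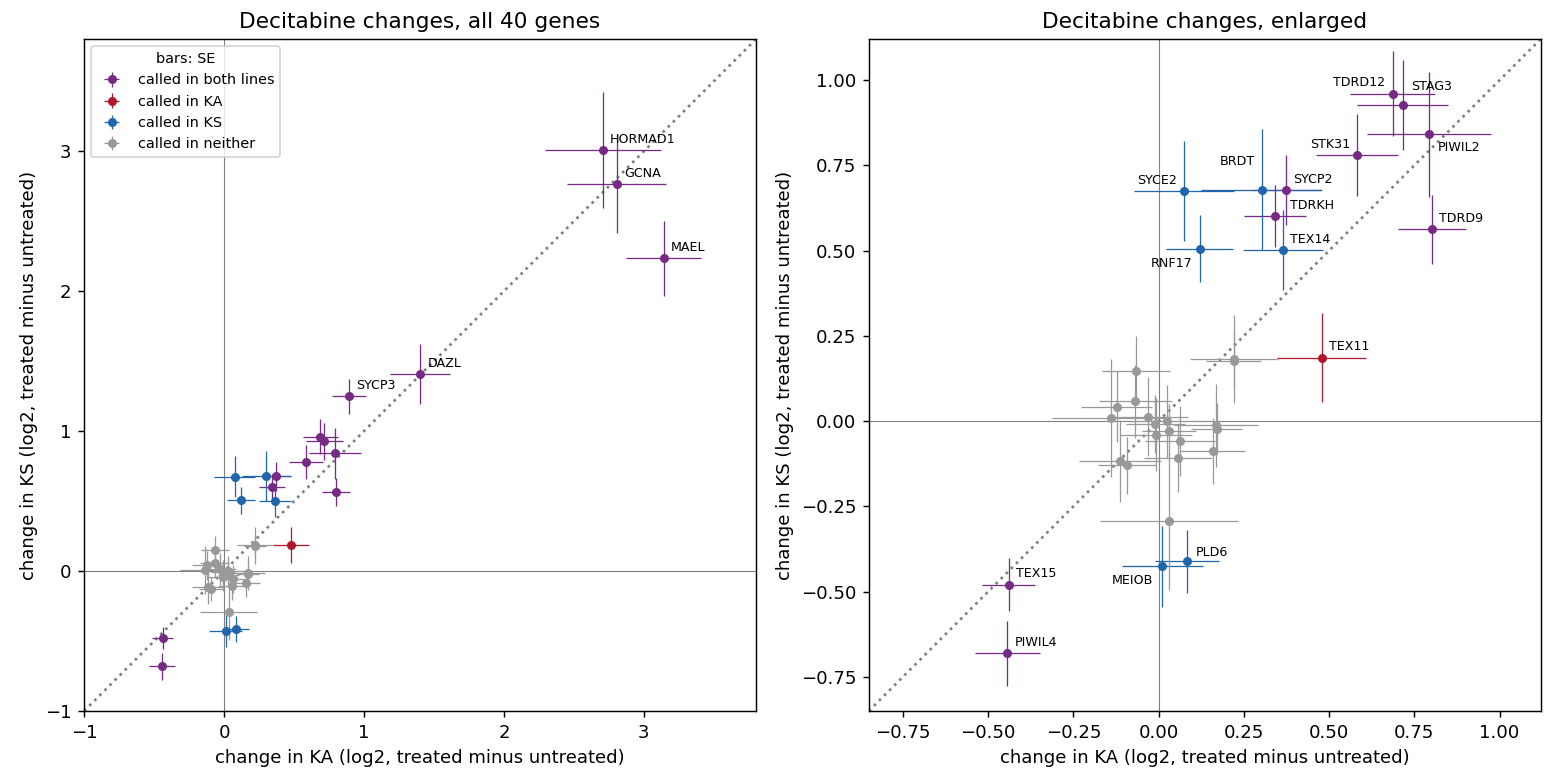
Decitabine change (log2, treated minus untreated) in KA on the horizontal axis and in KS on the vertical axis, for the 40 genes, with SE bars and the line of equal change dotted; the right panel enlarges the changes near 0. HORMAD1, GCNA, MAEL, DAZL and SYCP3 lie far up in both lines, while PIWIL4 and TEX15 lie below 0 in both.

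Because decitabine acts on the methylation of CpG dinucleotides, the promoter windows of the list are shown beside the changes. RefSeq (GRCh38.p14) windows from 250 bases before to 50 after the start site were at hand for 31 of the 40 genes, and the first window listed was used where a gene had several. The other 9 are TEX12, HORMAD1, MEIOB, TEX15, PIWIL2, PIWIL4, PLD6, DNMT3L and TEX14. The first 4 below belong to the genes with the largest called rises among those with a window. The last 3 belong to genes that were called in neither line although their windows hold many CpG. Sequences run 5′ to 3′ on the gene's strand, with every CG in capitals. MAEL lies on the plus strand at chr1:166975332-166975631, GCNA on the plus strand at chrX:71578187-71578486, DAZL on the minus strand at chr3:16605374-16605673 and SYCP3 on the minus strand at chr12:101739413-101739712. MOV10L1 lies on the plus strand at chr22:50089756-50090055, SMC1B on the minus strand at chr22:45413550-45413849 and PIWIL1 on the plus strand at chr12:130337637-130337936.
MAEL: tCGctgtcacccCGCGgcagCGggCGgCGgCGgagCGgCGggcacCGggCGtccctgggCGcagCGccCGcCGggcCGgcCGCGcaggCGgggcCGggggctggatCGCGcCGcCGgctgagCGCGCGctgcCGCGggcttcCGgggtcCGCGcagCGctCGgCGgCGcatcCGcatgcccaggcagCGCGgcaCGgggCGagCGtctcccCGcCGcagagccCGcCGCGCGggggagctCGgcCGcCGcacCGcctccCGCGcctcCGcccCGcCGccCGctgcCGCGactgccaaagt
GCNA: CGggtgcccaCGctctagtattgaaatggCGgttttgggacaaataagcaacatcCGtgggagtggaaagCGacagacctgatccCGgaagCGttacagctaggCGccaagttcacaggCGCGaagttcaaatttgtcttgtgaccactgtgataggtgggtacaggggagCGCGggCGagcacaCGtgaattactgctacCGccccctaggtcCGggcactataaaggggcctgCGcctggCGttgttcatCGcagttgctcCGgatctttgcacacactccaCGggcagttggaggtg
DAZL: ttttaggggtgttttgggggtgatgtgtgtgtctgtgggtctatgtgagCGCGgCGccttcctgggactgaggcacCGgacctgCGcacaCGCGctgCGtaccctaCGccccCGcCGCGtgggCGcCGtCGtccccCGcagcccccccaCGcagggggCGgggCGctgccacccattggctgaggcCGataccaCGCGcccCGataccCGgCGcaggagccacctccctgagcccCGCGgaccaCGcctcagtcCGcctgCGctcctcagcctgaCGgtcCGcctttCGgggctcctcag
SYCP3: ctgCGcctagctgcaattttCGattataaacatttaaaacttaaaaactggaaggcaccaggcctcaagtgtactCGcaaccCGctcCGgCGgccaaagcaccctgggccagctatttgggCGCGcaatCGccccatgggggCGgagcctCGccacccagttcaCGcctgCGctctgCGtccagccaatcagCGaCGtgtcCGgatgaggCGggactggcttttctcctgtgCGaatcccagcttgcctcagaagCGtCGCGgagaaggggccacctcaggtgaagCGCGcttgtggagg
MOV10L1: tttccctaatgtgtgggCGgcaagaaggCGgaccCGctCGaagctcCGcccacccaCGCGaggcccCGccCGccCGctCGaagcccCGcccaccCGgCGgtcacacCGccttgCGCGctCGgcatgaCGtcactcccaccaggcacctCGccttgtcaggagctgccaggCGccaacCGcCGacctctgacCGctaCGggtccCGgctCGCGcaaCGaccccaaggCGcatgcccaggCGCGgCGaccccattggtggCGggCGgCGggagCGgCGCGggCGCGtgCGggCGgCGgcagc
SMC1B: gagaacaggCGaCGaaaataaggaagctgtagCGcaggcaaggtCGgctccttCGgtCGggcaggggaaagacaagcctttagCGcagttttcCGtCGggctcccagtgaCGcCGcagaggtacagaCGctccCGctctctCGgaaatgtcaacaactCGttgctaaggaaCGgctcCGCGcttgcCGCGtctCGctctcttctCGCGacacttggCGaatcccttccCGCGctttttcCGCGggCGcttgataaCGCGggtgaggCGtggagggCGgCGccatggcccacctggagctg
PIWIL1: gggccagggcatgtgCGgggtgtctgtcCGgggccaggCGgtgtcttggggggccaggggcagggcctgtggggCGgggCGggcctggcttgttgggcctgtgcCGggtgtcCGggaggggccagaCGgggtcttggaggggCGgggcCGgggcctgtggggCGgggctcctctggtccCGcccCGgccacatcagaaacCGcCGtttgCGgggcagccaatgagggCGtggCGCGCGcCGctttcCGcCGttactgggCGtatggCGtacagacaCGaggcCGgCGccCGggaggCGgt

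MAEL had 60 CpG in its 300 bases, at percentile 99.9 of 27305 promoter windows. GCNA had 21, DAZL 33 and SYCP3 24, while MOV10L1 had 44, SMC1B 34 and PIWIL1 30. The median over the 14 raised genes with a window was 25 CpG (13 to 60), and over the 17 genes called in neither line 26 (1 to 44). All windows had a median of 14 and those of tested genes 23. The ranges of both sets overlapped, as the plot of CpG number against change shows. DDX4, with 1 CpG, and TEX101, with 3, had the fewest among the 31 genes with a window, and neither was called. Short motifs were searched on both strands. TCCCGC, the core bound by E2F factors, was present in 8 of 14 raised genes and 10 of 17 genes not called, against 26.8% of all windows and 35.9% of those of tested genes. CACGTG, an E-box read by MAX and its partners, was present in 5 of 14 raised genes (STAG3, TDRD12, STK31, GCNA and BRDT) and in 1 of 17 not called (TDRD1). All windows held it in 7.43% and those of tested genes in 8.88%. Both motifs hold a CG themselves, a match is not a bound site, and no test was made on these counts.

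**Figure D3:**
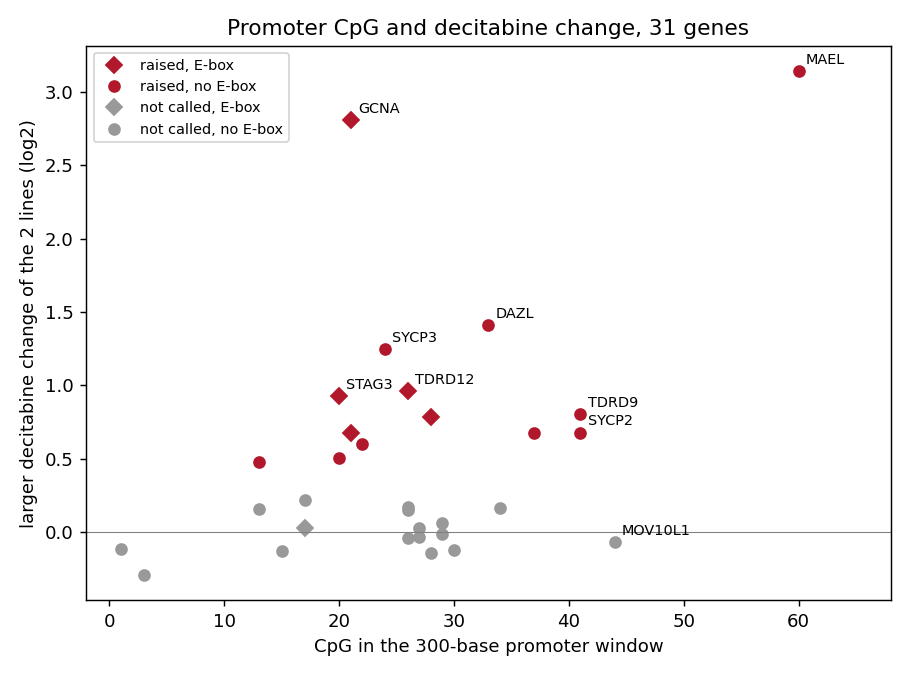
Number of CpG in the 300-base promoter window (horizontal axis) and the larger of the decitabine changes in the 2 lines (vertical axis, log2) for the 31 genes with a window. Diamonds hold the E-box CACGTG and circles do not; red genes rose in at least 1 line, by which they also lie higher, and grey genes were called in neither. Both colours span the same middle range of CpG numbers.

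The synaptonemal complex and chromosome axis gave 3 rises among 8 genes in KA and 4 in KS, with 0 falls in either (limma, and 0 at an unadjusted p under 0.05). For this and each later role group, 9.66% of all genes rose and 4.96% fell in KA, and 14.6% and 15.7% in KS. HORMAD1 (chr1:150698060-150720895), which coats unpaired meiotic chromosome axes, read 5.01, 5.18 and 5.05 in treated KA and 2.38, 2.57 and 2.18 in untreated KA. It read 6.09, 5.98 and 6.11 in treated KS and 2.35, 2.31 and 4.49 in untreated KS. All treated arrays were high, and among untreated arrays only KS replicate 3 was above the limit. HORMAD1 rose by 2.70 ± 0.41 in KA (SE; adjusted p = 0.00119) and by 3.01 ± 0.41 in KS (adjusted p = 0.000134), which are 6.52-fold and 8.05-fold as measured. Without untreated KS replicate 3 the rise in KS was 3.73 ± 0.10 (adjusted p = 1.15e-09). Each SE pools the spread of all 4 groups. The SD of HORMAD1 was 0.09 in treated KA, 0.19 in untreated KA and 1.25 in untreated KS. Its KA error with all arrays therefore reflects untreated KS replicate 3 as well, and so do those of MAEL and GCNA below.

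SYCP3, a filament protein of the lateral elements, read 3.74, 3.74 and 3.77 in treated KA and 2.91, 2.68 and 3.0 in untreated KA. Its values were 4.14, 4.43 and 4.01 in treated KS and 2.77, 2.91 and 3.16 in untreated KS. Both untreated groups were at background. SYCP3 rose by 0.89 ± 0.12 in KA (adjusted p = 0.000663) and by 1.25 ± 0.12 in KS (adjusted p = 1.41e-05). CHPT1, a phospholipid enzyme gene whose span overlaps that of SYCP3, was called in neither line (-0.16 in KA, -0.08 in KS).

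SYCP2, its partner in the lateral elements, rose by 0.37 ± 0.10 in KA (adjusted p = 0.0285) and by 0.68 ± 0.10 in KS (adjusted p = 0.000273). It read 2.99, 3.0 and 2.84 in treated KA and 2.62, 2.50 and 2.59 in untreated KA. Its values were 2.93, 2.96 and 3.32 in treated KS and 2.29, 2.38 and 2.51 in untreated KS. All 12 lay below the limit, so no fold is given. Its KA call was lost when any 1 KA array other than treated KA replicate 3 was left out (adjusted p = 0.0568 to 0.101).

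SYCE2, a central element protein, read 4.66, 4.77 and 4.71 in treated KA and 4.61, 4.69 and 4.62 in untreated KA, with a change of 0.07. In treated KS it read 5.50, 5.48 and 5.08, against 4.88, 4.29 and 4.87 in untreated KS, a rise of 0.68 ± 0.15 (adjusted p = 0.00312). GCDH, a mitochondrial dehydrogenase gene that overlaps SYCE2, fell by 0.90 ± 0.08 in KS and by 0.29 ± 0.08 in KA. The other 4 genes of the group were not called. SYCE1, a central element protein, was near the limit in KA and below it in KS. SYCP1, which forms the transverse filaments, TEX12, also of the central element, and HORMAD2, a relative of HORMAD1, had all their group means below it.

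Of the 3 meiotic cohesin genes, STAG3 rose in both lines, and SMC1B and REC8 in neither. STAG3 read 5.94, 5.70 and 5.89 in treated KA and 5.33, 5.08 and 4.98 in untreated KA. Its values were 5.88, 6.06 and 5.89 in treated KS and 4.88, 4.82 and 5.34 in untreated KS. The groups of a line did not overlap, and the rise was 0.72 ± 0.13 in KA (adjusted p = 0.00372) and 0.93 ± 0.13 in KS (adjusted p = 0.000175). STAG3 has near-identical partial copies in the genome, and CASTOR3P, a pseudogene that overlaps it, also rose (0.47 ± 0.06 in KA, 0.36 ± 0.06 in KS), so which copy was read is uncertain. PVRIG, an immune receptor gene that also overlaps STAG3, was called in neither line (-0.11 in KA, -0.06 in KS). REC8, the meiotic kleisin, averaged 4.88 ± 0.07 in treated KA, 4.71 ± 0.06 in untreated KA, 4.69 ± 0.04 in treated KS and 4.71 ± 0.12 in untreated KS (SD, n = 3 each). IPO4, an importin gene that overlaps REC8, fell by 0.54 ± 0.07 in KA and by 1.0 ± 0.07 in KS. SMC1B, the meiotic SMC subunit, had all 4 means below the limit.

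Of 6 recombination genes, TEX11 rose and TEX15 fell in KA, and TEX15 and MEIOB fell in KS. TEX11, which in mice helps to form crossovers, read 3.65, 3.79 and 3.71 in treated KA and 2.96, 3.26 and 3.49 in untreated KA. The rise of 0.48 ± 0.13 (adjusted p = 0.0267) starts at background. In treated KS the values were 2.85, 2.97 and 2.57, and in untreated KS 2.53, 2.74 and 2.57, all below the limit. The KA call was lost when treated KA replicate 1, 2 or 3 or untreated KA replicate 1 or 2 was left out, with adjusted p = 0.0527 to 0.107.

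TEX15, which in mice serves both meiotic repair and piRNA-guided silencing, was well above the limit everywhere. It read 6.58, 6.50 and 6.45 in treated KA and 6.89, 7.04 and 6.93 in untreated KA. In treated KS it read 6.82, 6.69 and 6.91, and in untreated KS 7.36, 7.27 and 7.22. Treated arrays were lower than untreated ones in both lines, by 0.44 ± 0.08 in KA (adjusted p = 0.00273) and 0.48 ± 0.08 in KS (adjusted p = 0.000416).

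MEIOB, a single-stranded DNA binding protein, read 6.66, 6.35 and 6.74 in treated KS and 7.08, 7.15 and 6.80 in untreated KS, a fall by 0.43 ± 0.12 (adjusted p = 0.0148). The call was lost without treated KS replicate 2 (adjusted p = 0.0699) and without untreated KS replicate 1 (0.0566) or 2 (0.0662). In treated KA it read 6.78, 6.71 and 6.51, and in untreated KA 6.57, 6.67 and 6.74, with a change of 0.01. FAHD1, a mitochondrial hydrolase gene inside the span of MEIOB, fell by 0.59 ± 0.13 in KS (adjusted p = 0.00332) and was not called in KA, at -0.06. Whether the array tells the transcripts of these overlapping genes apart was not tested. DMC1, the meiotic recombinase, averaged 5.32 ± 0.04 in treated KA, 5.25 ± 0.14 in untreated KA, 5.10 ± 0.15 in treated KS and 5.16 ± 0.16 in untreated KS, and was called in neither line. SPO11, the enzyme that makes the meiotic breaks, had all 4 means below the limit, and MEI1, needed for those breaks in mice, changed by 0.22 in KA and 0.18 in KS without a call. In KA, MEI1 was called in 3 of 21 alternatives.

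Among 10 PIWI and piRNA biogenesis genes, MAEL and PIWIL2 rose in both lines, PIWIL4 fell in both and PLD6 fell in KS. MAEL (chr1:166975582-167022214), a germ granule protein needed for transposon silencing, read 5.83, 6.03 and 6.37 in treated KA and 3.14, 2.78 and 2.88 in untreated KA. It read 5.41, 5.25 and 5.26 in treated KS and 2.72, 2.59 and 3.91 in untreated KS. The groups were far apart in both lines, with untreated KS replicate 3 above its fellows. The change of 3.14 ± 0.27 in KA (adjusted p = 4.63e-05) and the change of 2.23 ± 0.27 in KS (adjusted p = 4.63e-05) both start at background. Without untreated KS replicate 3 the KS rise was 2.65 ± 0.15.

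PIWIL2, 1 of the 3 PIWI genes of the list, read 4.05, 3.74 and 4.05 in treated KA and 2.92, 3.10 and 3.43 in untreated KA. In treated KS its values were 3.86, 3.77 and 3.85, against 2.72, 2.75 and 3.48 in untreated KS. It rose by 0.79 ± 0.18 in KA (adjusted p = 0.0120) and 0.84 ± 0.18 in KS (adjusted p = 0.00327), from means below the limit. Without untreated KA replicate 1 the KA call was lost (adjusted p = 0.0539).

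PIWIL4, which in the mouse directs methylation of transposon DNA in the nucleus, went the other way. It read 7.53, 7.69 and 7.54 in treated KA and 8.16, 7.86 and 8.07 in untreated KA. Its values were 6.63, 6.40 and 6.54 in treated KS and 7.24, 7.29 and 7.08 in untreated KS. It fell by 0.44 ± 0.10 in KA (adjusted p = 0.00834) and by 0.68 ± 0.10 in KS (adjusted p = 0.000151), and an antisense gene lies over its locus. PIWIL1, the PIWI protein of later meiotic cells in mice, had all 4 means below the limit and was called in neither line.

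PLD6, the mitochondrial nuclease that in mice cuts piRNA precursors, read 6.26, 6.44 and 6.45 in treated KS and 6.91, 6.85 and 6.62 in untreated KS, a fall by 0.41 ± 0.09 (adjusted p = 0.00417). In treated KA it read 7.02, 6.95 and 6.90, and in untreated KA 6.89, 6.75 and 6.99, which overlap. The helicases DDX4 and MOV10L1, the germ granule protein ASZ1, the piRNA methylase HENMT1 and the DNA methylation cofactor DNMT3L were called in neither line, with changes between -0.12 and 0.06. Of these, DDX4, ASZ1 and HENMT1 had all group means below the limit, DNMT3L was near it in every group, and MOV10L1 in 3 of 4.

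**Figure D4:**
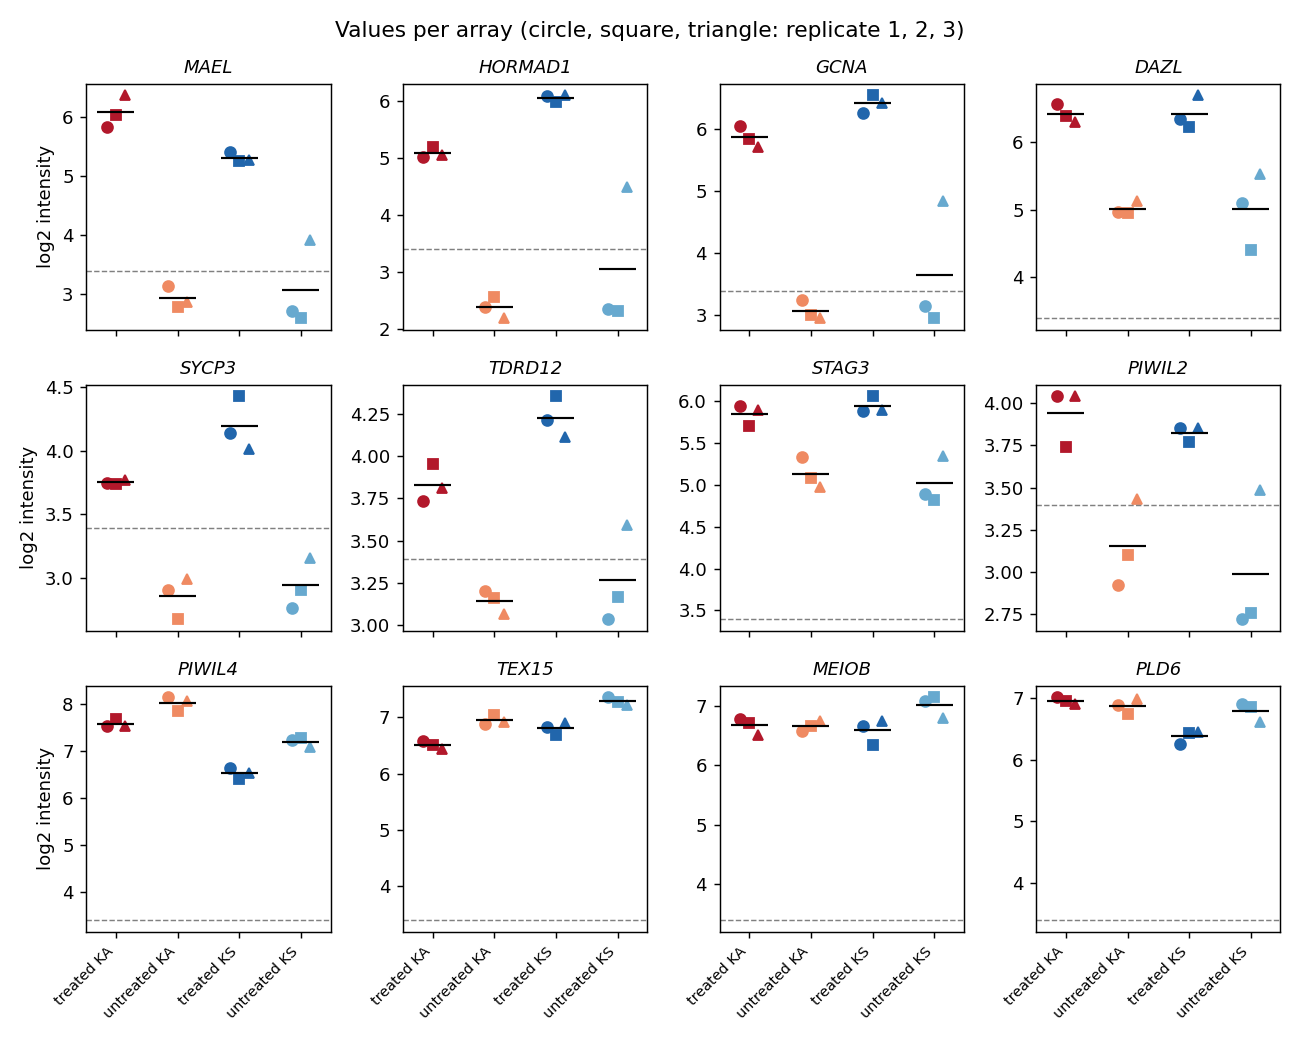
Log2 intensity on each array for 12 genes of the list, with group means as black bars and the limit of 3.39 dashed; symbols mark replicates 1 to 3. In MAEL, HORMAD1 and GCNA, both treated groups lie above all untreated arrays, and untreated KS replicate 3 (triangle) lies between its group and the treated one.

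Tudor domain genes gave 4 rises among 8 in KA and 5 in KS, with 0 falls (limma, and 0 at an unadjusted p under 0.05). TDRD12, a helicase-like Tudor protein, read 3.73, 3.95 and 3.81 in treated KA and 3.20, 3.16 and 3.07 in untreated KA. In treated KS it read 4.21, 4.36 and 4.11, and in untreated KS 3.03, 3.16 and 3.59. It rose by 0.69 ± 0.12 in KA (adjusted p = 0.00327) and 0.96 ± 0.12 in KS (adjusted p = 8.4e-05). TDRD9, a partner helicase of piRNA amplification in mice, read 3.77, 3.76 and 3.55 in treated KA and 3.05, 2.81 and 2.82 in untreated KA. It read 3.43, 3.49 and 3.60 in treated KS and 2.79, 2.93 and 3.12 in untreated KS, so that all treated arrays were higher and near the limit. The rise was 0.80 ± 0.10 in KA (adjusted p = 0.000396) and 0.56 ± 0.10 in KS (adjusted p = 0.000891).

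TDRKH, which holds PIWI proteins at mitochondria, was clearly above the limit before treatment. It read 6.37, 6.44 and 6.19 in treated KA and 5.87, 6.05 and 6.06 in untreated KA. In treated KS it read 6.33, 6.48 and 6.36, and in untreated KS 5.80, 5.66 and 5.90. It rose by 0.34 ± 0.09 in KA (adjusted p = 0.0250) and by 0.60 ± 0.09 in KS (adjusted p = 0.000275). The KA call was lost without treated KA replicate 1 (adjusted p = 0.0794) or 2 (0.0965) and without untreated KA replicate 1 (0.103). OAZ3, which overlaps TDRKH, was called in neither line, at 0.05 in KA and 0.02 in KS.

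STK31, a Tudor protein with a kinase domain, rose by 0.58 ± 0.12 in KA (adjusted p = 0.00686) and 0.78 ± 0.12 in KS (adjusted p = 0.000306). It read 2.78, 3.25 and 3.02 in treated KA and 2.45, 2.50 and 2.34 in untreated KA. Its values were 3.20, 2.95 and 2.99 in treated KS and 2.31, 2.41 and 2.08 in untreated KS. All 12 were below the limit. RNF17, a Tudor protein of germ cell granules in mice, rose in KS by 0.50 ± 0.10 (adjusted p = 0.00158). It read 2.59, 2.29 and 2.44 in treated KS and 1.86, 1.87 and 2.08 in untreated KS, all below the limit. In KA it changed by 0.12, with 1.91, 1.74 and 1.92 in treated KA and 1.75, 1.85 and 1.61 in untreated KA. CPAP, a centriole protein gene that overlaps RNF17, changed by 0.07 in KS without a call. TDRD1, TDRD5 and TDRD6, further Tudor proteins of germ cell granules, were called in neither line, with changes from -0.09 to 0.16 and all means below the limit.

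Of the 5 measured germ cell regulators and other germ cell proteins, 2 rose in KA and 4 in KS, with 0 falls (limma, and 0 at an unadjusted p under 0.05). GCNA (chrX:71578437-71613583), a nuclear protein that marks germ cells, read 6.06, 5.84 and 5.71 in treated KA and 3.24, 3.0 and 2.95 in untreated KA. It read 6.26, 6.55 and 6.43 in treated KS and 3.15, 2.95 and 4.85 in untreated KS. As for HORMAD1, only replicate 3 among the untreated arrays stood clear of the limit. GCNA rose by 2.81 ± 0.35 in KA (adjusted p = 0.000398) and by 2.77 ± 0.35 in KS (adjusted p = 7.7e-05). Without untreated KS replicate 3 the KS rise was 3.37 ± 0.13.

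DAZL (chr3:16586792-16605423), an RNA-binding protein that promotes translation in germ cells, was above the limit before treatment in both lines. It read 6.56, 6.39 and 6.29 in treated KA and 4.96, 4.95 and 5.13 in untreated KA. Its values were 6.35, 6.22 and 6.70 in treated KS and 5.10, 4.41 and 5.52 in untreated KS. It rose by 1.40 ± 0.21 in KA (2.64-fold; adjusted p = 0.00116) and by 1.41 ± 0.21 in KS (2.65-fold; adjusted p = 0.000272). DAZL has close relatives in the DAZ genes, and cross-hybridisation was not tested. TEX14, needed for bridges between mouse germ cells, read 3.73, 3.64 and 3.84 in treated KS and 3.21, 3.29 and 3.20 in untreated KS, a rise of 0.50 ± 0.12 (adjusted p = 0.00512). In treated KA it read 3.30, 3.39 and 3.55, and in untreated KA 3.35, 2.83 and 2.97. These overlapped, and the change of 0.36 was not called (limma adjusted p = 0.0555). It was called in 5 of 21 alternatives, among them median centring, quantile normalization and array weights. BRDT, a bromodomain protein of spermatocytes, rose in KS by 0.68 ± 0.18 (adjusted p = 0.0104). It read 3.13, 3.28 and 3.19 in treated KS and 2.19, 2.81 and 2.56 in untreated KS, all below the limit. Without untreated KS replicate 1 this call was lost (adjusted p = 0.0537). In KA it changed by 0.30 without a call. TEX101, a germ cell surface protein, was called in neither line.

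The decitabine response itself was compared between the lines by the KA change minus the KS change. Of all genes, 6.74% were called in this comparison (4.6% with a higher and 2.14% with a lower KA change), and of the 40 genes 1 was, PLD6. Its difference was 0.49 ± 0.13 (95% interval 0.21 to 0.78; adjusted p = 0.0419), with a change of 0.08 in KA and -0.41 in KS. At an unadjusted p under 0.05, limma gave 3 genes with a higher and 2 with a lower KA change. MAEL had a difference of 0.91 ± 0.38, which did not pass (adjusted p = 0.172), and SYCE2 had a difference of -0.60 (adjusted p = 0.103). For HORMAD1 (-0.30 ± 0.59), GCNA (0.04 ± 0.50) and DAZL (-0.01 ± 0.30) the errors were wide. A missed threshold does not show equal responses. MAEL and HORMAD1 started at background in both lines, so both of their changes are lower bounds. GCNA started at background in KA, so its KA change is a lower bound. In KS its untreated mean was near background, and only untreated KS replicate 3 lay above the limit. The size and direction of the difference between such changes are not settled.

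These values changed with 1 array. Without untreated KS replicate 3, 4 genes of the list were called. HORMAD1 had a difference of -1.03 ± 0.14 (adjusted p = 0.00148), the larger measured change being in KS. PLD6 had 0.58 ± 0.12 (adjusted p = 0.0122), MEIOB 0.54 ± 0.16 (adjusted p = 0.0487) and TDRD12 -0.44 ± 0.13 (adjusted p = 0.0467). GCNA moved to -0.56 ± 0.17 (adjusted p = 0.0571) and MAEL to 0.49 ± 0.19 (adjusted p = 0.134). HORMAD1, TDRD12 and MAEL started at background in both lines, so their differences are between lower bounds and the true direction is not settled. The same holds for GCNA in this fit, as the remaining untreated KS arrays (3.15 and 2.95) lay below the limit. The PLD6 call was lost in 12 of 20 alternatives, among them leaving out any 1 array other than untreated KA replicate 3 or untreated KS replicate 3. With any 1 array left out, its adjusted p was at most 0.106 and its difference between 0.43 and 0.58.

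**Figure D5:**
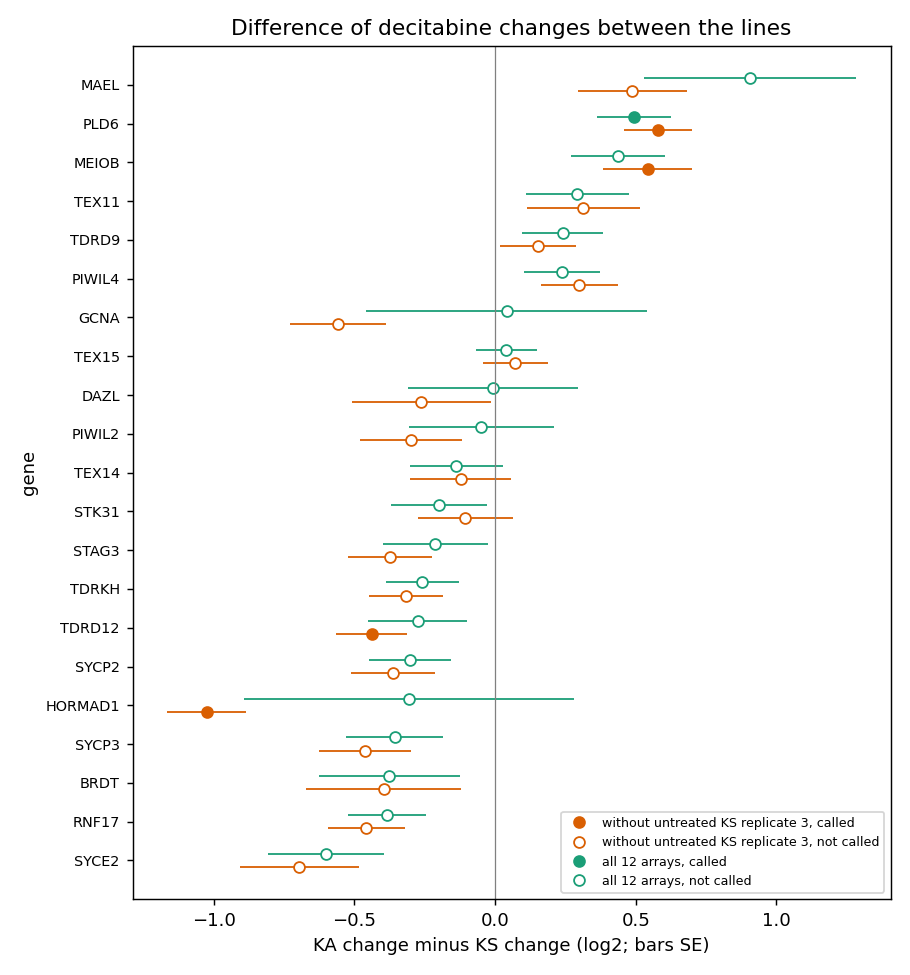
KA change minus KS change (log2, horizontal axis, SE bars) for the 21 genes called in at least 1 decitabine comparison, from the fit of all 12 arrays (green) and the fit without untreated KS replicate 3 (orange); filled points are called. PLD6 is called in both fits, and HORMAD1, GCNA and MAEL have much shorter bars without that array.

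Before treatment, few of these genes were called between the lines. In each untreated group 26 of the 40 were at or below the limit, so few calls do not show that the lines were alike. With array weights 9 were called. Without untreated KS replicate 3, 5 were called, with 3 higher and 2 lower in untreated KA. PIWIL2, with both means below the limit, was called only in that fit (limma adjusted p = 0.0399). With all arrays weighted alike, 2 of the 40 were higher and 2 lower in untreated KA than in untreated KS. Of all genes, 11.6% were higher and 14.1% lower (25.7% in either direction). PIWIL4 was 0.82 ± 0.10 higher in untreated KA (adjusted p = 3.3e-05), with the values given above. TEX11 was 0.63 ± 0.13 higher (adjusted p = 0.00274), though both means were below the limit. TEX15 was lower by 0.34 ± 0.08 (adjusted p = 0.00547) and MEIOB by 0.35 ± 0.12 (adjusted p = 0.0444), a call lost in 10 of 21 alternatives (adjusted p up to 0.155, without untreated KS replicate 2).

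After treatment, 5 genes were higher and 5 lower in treated KA than in treated KS, against 15.1% and 11.9% of all genes (27.0% in either direction). Higher in treated KA were PIWIL4 by 1.06 ± 0.10, TEX11 by 0.92 ± 0.13, MAEL by 0.77 ± 0.27, PLD6 by 0.58 ± 0.09 and TDRD5 by 0.42 ± 0.10. The MAEL call (adjusted p = 0.0487) was lost in 10 alternatives, 9 of which each left out 1 KA array or 1 treated KS array (adjusted p = 0.0512 to 0.173).

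Lower in treated KA were SYCE2 by 0.64 ± 0.15, RNF17 by 0.59 ± 0.10, SYCP3 by 0.44 ± 0.12, TDRD12 by 0.39 ± 0.12 and TEX15 by 0.30 ± 0.08. TDRD5 and RNF17 had both means at or below the limit. TEX11 was below it in treated KS and near background in treated KA, so its difference is a lower bound. SYCP3 and TDRD12 were near background in treated KA. Calls were lost for SYCP3 without treated KS replicate 2 (adjusted p = 0.0743) and for TEX15 without treated KS replicate 3 (0.0536). TDRD12 lost its call without treated KA replicate 1 or 3 or treated KS replicate 1 or 2 (adjusted p up to 0.116). HORMAD1 differed by -0.98 and GCNA by -0.55 between the treated groups. Neither was called with all arrays (adjusted p = 0.105 and 0.309). In a fit of the 2 treated groups alone, both were called (adjusted p = 3.12e-05 for HORMAD1 and 0.00578 for GCNA). Both were also called without untreated KS replicate 3, at adjusted p = 9.41e-06 for HORMAD1 and 0.00322 for GCNA.

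Further genes of the same pathways were listed beside these 40. For comparison, 9.66% of all genes rose and 4.96% fell in KA, and 14.6% rose and 15.7% fell in KS. The 5 rises among 29 other meiosis genes in KS lie near that share. Of 29 other meiosis genes measured (of 35 listed), 5 rose and 0 fell in KA (limma; 7 and 0 at an unadjusted p under 0.05), and 5 rose and 1 fell in KS. CNTD1, a crossover factor, averaged 4.18 ± 0.09 in treated KA, 3.57 ± 0.31 in untreated KA, 4.61 ± 0.18 in treated KS and 3.63 ± 0.40 in untreated KS (SD, n = 3 each). It rose by 0.61 ± 0.19 in KA and 0.97 ± 0.19 in KS. PRDM9, which marks recombination sites, averaged 7.83 ± 0.23 in treated KA, 7.15 ± 0.20 in untreated KA, 5.08 ± 0.24 in treated KS and 4.57 ± 0.11 in untreated KS. It rose by 0.68 ± 0.14 in KA and 0.51 ± 0.14 in KS, and was 2.58 ± 0.14 higher in untreated KA than in untreated KS. Of 16 other piRNA pathway genes measured (of 19), 0 were called in KA (limma; 2 rose and 1 fell at an unadjusted p under 0.05). In KS, PNLDC1, which trims piRNA ends, rose by 0.53 ± 0.14, SPOCD1, a silencing factor, rose by 0.51 ± 0.14, and 1 gene fell.

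The next lists have the same shares of all genes for comparison, 9.66% higher and 4.96% lower in KA, and 14.6% higher and 15.7% lower in KS. Of 25 postmeiotic sperm genes, 1 rose and 1 fell in KA, and 2 rose and 0 fell in KS (limma; also 2 and 0 at an unadjusted p under 0.05). PRM1, a protamine, fell by 0.30 ± 0.09 and ODF2, a sperm tail protein also found at centrosomes, rose by 0.26 ± 0.07 in KA. CRISP2 and SPACA3, both sperm proteins, rose by 0.57 ± 0.09 and 0.56 ± 0.09 in KS. Of 16 measured somatic counterparts of the listed genes, 3 rose and 1 fell in KA, and 2 rose and 5 fell in KS. STAG1, a somatic cohesin subunit related to STAG3, fell by 0.50 ± 0.15 in KA and by 1.07 ± 0.15 in KS, where STAG3 rose. AGO4, an Argonaute protein, rose by 0.37 ± 0.10 in KA and by 0.48 in KS, the largest rise of these counterparts there. DDX3X, a helicase related to DDX4, fell by 0.63 ± 0.08 in KS. It averaged 8.34 in treated KA and 8.58 in untreated KA, without a call. Of 17 measured germline gene repressors, that is PRC1.6 complex members and partners, 0 rose and 1 fell in KA, and 0 rose and 10 fell in KS (0 rises at an unadjusted p under 0.05 in KS, 1 in KA). The median change of these repressors was -0.03 in KA and -0.25 in KS, against -0.02 and -0.01 over all genes. L3MBTL2, a PRC1.6 subunit, averaged 5.59 ± 0.09 in treated KS and 6.06 ± 0.03 in untreated KS, and 5.84 ± 0.08 in treated KA and 5.85 ± 0.07 in untreated KA. It fell by 0.47 ± 0.07 in KS, and its difference of responses was 0.46 ± 0.10 (adjusted p = 0.0193). SETDB1, a histone methyltransferase, fell by 0.41 ± 0.09 in KS. UHRF1, which binds hemimethylated DNA, fell by 0.30 ± 0.08 in KA.

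Markers of the somatic cells of the testis were read as well. Of 12 Sertoli and Leydig cell markers, 9 lay above the limit in every group, and FSHR, CYP17A1 and HSD17B3 did not. In KA 1 rose and 1 fell, where 9.66% of all genes rose and 4.96% fell. In KS 3 rose and 1 fell, where 14.6% of all genes rose and 15.7% fell. Array means over this list were 4.97 to 5.08 in treated KA, 4.95 to 5.13 in untreated KA, 5.02 to 5.10 in treated KS and 4.86 to 5.04 in untreated KS. STAR, a mitochondrial cholesterol carrier, averaged 8.49 in treated KA, 8.16 in untreated KA, 9.09 in treated KS and 7.70 in untreated KS, and rose by 0.33 ± 0.10 in KA and 1.39 ± 0.10 in KS. WT1, a transcription factor, averaged 7.12 in treated KA, 7.35 in untreated KA, 6.81 in treated KS and 7.21 in untreated KS. It fell by 0.23 ± 0.07 in KA (limma adjusted p = 0.0348), and it was also the 1 marker that fell in KS, by 0.39. INHA, the inhibin alpha subunit, rose by 0.47 ± 0.16 in KS (adjusted p = 0.0364). Per the labels, all samples were K562 or K562/ADR cells, so these markers were read as genes of the lines. The part of these cell markers in the germline gene changes was not tested.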

How the data were processed

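RNA of 12 samples was read on Affymetrix whole-transcript arrays after labelling as biotin cRNA, per the labels' protocols. The authors deposited 1 table of log2 intensities for 33297 transcript clusters; its background correction, normalization and summarisation are not given in the sources used here. Platform annotation gave 1 symbol for 19460 rows, several for 1754 and none for 12083. Rows with 1 symbol were updated by Entrez identifier to RefSeq GRCh38.p14 (19429 matched), giving 18417 genes; the brightest row was used for the 769 with several. Coordinates are RefSeq gene spans.

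The 4 groups follow the labels, and 1 limma model (limma 3.58.1 in R 4.3.3; lmFit, eBayes) of all 12 arrays gave 5 comparisons, tested on simulated data first. Tables and figures used Python 3.11.15. Array number limits the precision, and within-group correlations across genes were 0.994 to 0.997. Every gene of the list with its own row could be named, with all array values for those called after decitabine; genes of other lists were named from their 2 largest called changes in a comparison, and overlapping genes for their position. The gene list and the other lists were chosen with earlier results of these data known. Normalization, gene summary, dim genes, eBayes settings, array weights, the replicate block and leaving out arrays were varied.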

Additional observations from a re-analysis of the deposited data

Results flagged for a closer look

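PLD6, the mitochondrial nuclease of piRNA precursors, stood out because its decitabine response differed between the lines by the test of the difference itself. The KA change minus the KS change was 0.49 ± 0.13 (SE; limma adjusted p = 0.0419, 3 arrays in each of 4 groups). All 3 treated KS arrays lay below all 3 untreated KS arrays, whereas the KA groups overlapped. The call was lost when treated KA replicate 1, 2 or 3, untreated KA replicate 1 or 2, treated KS replicate 1, 2 or 3, or untreated KS replicate 1 or 2 was left out, with adjusted p = 0.0623 to 0.106 and the same direction.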

How the results depend on the processing

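Over the alternatives run, the count of called genes of the list was 12 to 18 for decitabine in KA (15 as reported), 16 to 20 in KS (20) and 7 to 13 between treated lines (10). For the difference of responses, 1 gene as reported became 0 with quantile normalization, 0 with the replicate block and 2 with array weights. It was 0 to 4 when 1 array was left out and 3 without both KS arrays that stand apart. Between untreated lines, 4 as reported became 9 with array weights and 5 without untreated KS replicate 3. The GCNA difference turned to -0.64 (limma adjusted p = 0.0408) without both KS arrays, against 0.04 as reported. Leaving out untreated KS replicate 3 alone gave most of this shift, as the values above show. Without that array both GCNA changes start at background, so the direction of their difference is not settled. Why that array stood apart was not tested. Of the called genes, 11 of 15 in KA, 18 of 20 in KS, 0 of 1 for the difference, 3 of 4 between untreated lines and 6 of 10 between treated lines kept their call in every alternative that tested them. Of the genes not called, 4 of 25 in KA and 1 of 20 in KS were called in at least 1 alternative. So were 5 of 39 for the difference, 6 of 36 between untreated lines and 5 of 30 between treated lines. Leaving out dim genes left SYCP2 and STK31 untested in KA, SYCP2, RNF17, STK31 and BRDT in KS, and TDRD5 and RNF17 between treated lines, which gives the 16 in KS. Quantile normalization moved the share of higher calls over all genes in the difference of responses to 53.9%, against 68.3%. Same-numbered arrays did not deviate together (correlations from -0.26 to 0.19), so the numbers were not taken to pair samples; with the replicate block 15 genes of the list were called in KA, 20 in KS, 3 between untreated and 10 between treated lines. A fit of only the compared groups was not run for the difference of responses. Over all genes, array weights called 4417 in KA, against 2694, and 2288 for the difference, against 1241; without 1 array these ranged from 1653 to 3020 and from 564 to 2049. Signals at background limit what can be said of the 17 genes never above it.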
